A study of Mus musculus with 2 samples.

Results

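The recombinase and surrogate light chain genes are 6 mouse genes, Rag1, Rag2, Dntt, Vpreb1, Vpreb3 and Igll1, chosen by name from the 21938 protein-coding genes of the GENCODE M21 annotation of mm10. DNase-seq, which maps open chromatin by cutting it with DNase I, was done on 2 libraries of whole spleen, and both form 1 group with no treatment and no control. The mice were male, 14 days old and of strain B6CASTF1/J, an F1 cross of C57BL/6J and CAST/EiJ. By the labels, spleens of 3 males went into replicate 1 and the spleen of 1 male into replicate 2, under a shared donor entry, so animal number, handling and depth cannot be told apart as sources of a difference between the libraries. Spleen is a mixture of cell types, and fewer cells of a type cannot be told apart from less open chromatin per cell. For each gene, peaks and footprints were collected in the gene body widened by 30 kb on each side. A site whose peak lay within 1000 bases of an annotated transcript start was called a promoter site and any other a distal site.

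RAG1 and RAG2 together form the recombinase that cuts DNA beside the V, D and J segments of antigen receptor genes. Dntt encodes terminal deoxynucleotidyl transferase, which adds bases without a template at the cut ends before they are joined. Vpreb1 and Igll1 (also called lambda 5) encode the surrogate light chain that pairs with the heavy chain in the pre-B cell receptor, and Vpreb3 encodes a related protein of the B lineage that binds newly made receptor chains. In mouse, Rag1, Rag2 and Dntt are used by developing lymphocytes in bone marrow and thymus, and Vpreb1 and Igll1 by early B cells. The genes lie in 4 loci, since Rag1 and Rag2 are neighbours on chromosome 2 and Vpreb1 and Igll1 on chromosome 16. Dntt lies on chromosome 19 and Vpreb3 on chromosome 10.

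The authors deposited 2 peak lists per library. The list with fewer bases, called strict here, held 48286 peaks in replicate 1 and 28837 in replicate 2, and the larger list held 71274 and 44049. The number of reads is not in the files used here, so the depth is unknown. The signal of a peak is the authors' value, on a scale that the sources used here do not state. Over 25244 sites with a strict peak in both libraries, the signal of replicate 1 was a median 1.49 times that of replicate 2. Of all protein-coding genes, 51.1% had a strict promoter peak in both libraries. Among marker genes, 6 of 7 of B cells and 5 of 6 of red cells had one in both. So did 3 of 8 of T cells and thymocytes and 3 of 4 of plasmacytoid dendritic cells. The counts were 1 of 5 for macrophages, 2 of 3 for nerve, 1 of 3 for muscle and 0 of 3 for liver. With lists this short, the counts only describe the genes listed. Ptcra, the pre-T cell receptor chain of thymocytes, had no strict promoter peak. Tlx1 and Nkx2-5, factors that form the spleen, had no strict promoter peak in either library, and Madcam1 was the 1 of 4 stromal markers with one in both.

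Away from promoters, 6 strict peaks of the 4 loci were called in both libraries, and 5 of the 6 hold a sequence with at most 1 mismatch to the core consensus of CTCF, a zinc finger protein known for anchoring chromatin loops and insulating genes. Over the genome, 49.2% of distal replicate 1 peaks also called in replicate 2 hold such a match, and the search was added after the sequences had been seen. A shorter set of CTCF letters in the original plan, CNAGNNGGC, gave fewer matches. They were in 3 of 16 strict sites searched, member promoters included, beside 25.2% of all strict peaks of replicate 1. Sites were numbered along the chromosome within each locus. The sequences of these 6 peaks are given first because each holds footprints, short stretches inside open chromatin where bound protein shields DNA from the enzyme, and some of these overlapped between the libraries. They are from the + strand of the RefSeq mm10 reference over the span of the replicate 1 peak. Capitals mark bases inside footprints of both replicates.
Rag1/Rag2 site 9 (chr2:101652961-101653120, 3539 bases upstream of the Rag1 start): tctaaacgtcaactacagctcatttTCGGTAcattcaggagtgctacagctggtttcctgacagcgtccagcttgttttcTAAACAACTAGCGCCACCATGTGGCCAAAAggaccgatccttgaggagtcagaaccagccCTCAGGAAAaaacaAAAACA
Rag1/Rag2 site 10 (chr2:101665401-101665560, 15979 bases upstream of the Rag1 start): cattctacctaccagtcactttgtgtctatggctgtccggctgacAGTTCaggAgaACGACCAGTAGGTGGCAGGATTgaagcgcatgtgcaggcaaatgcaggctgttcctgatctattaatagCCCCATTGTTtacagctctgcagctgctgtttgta
Dntt site 2 (chr19:41016021-41016240, 13145 bases upstream of the Dntt start): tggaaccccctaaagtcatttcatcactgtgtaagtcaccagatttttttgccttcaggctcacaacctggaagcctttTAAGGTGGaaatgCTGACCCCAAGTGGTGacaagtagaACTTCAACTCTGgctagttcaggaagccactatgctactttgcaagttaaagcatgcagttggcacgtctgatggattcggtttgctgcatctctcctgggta
Dntt site 7 (chr19:41053601-41053800, in an intron of Dntt, 24315 bases downstream of its start): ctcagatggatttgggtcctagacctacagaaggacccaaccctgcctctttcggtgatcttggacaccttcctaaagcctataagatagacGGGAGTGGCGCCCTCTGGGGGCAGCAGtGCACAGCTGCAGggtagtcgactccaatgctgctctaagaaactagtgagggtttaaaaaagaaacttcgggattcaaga
Dntt site 8 (chr19:41071661-41071800, in an intron of Opalin, 42345 bases downstream of the Dntt start): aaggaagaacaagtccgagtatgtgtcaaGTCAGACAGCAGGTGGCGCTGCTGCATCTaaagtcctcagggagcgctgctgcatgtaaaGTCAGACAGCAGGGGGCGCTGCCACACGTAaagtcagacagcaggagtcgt
Vpreb1/Igll1 site 1 (chr16:16854961-16855140, 8935 bases downstream of the Igll1 start and past its end): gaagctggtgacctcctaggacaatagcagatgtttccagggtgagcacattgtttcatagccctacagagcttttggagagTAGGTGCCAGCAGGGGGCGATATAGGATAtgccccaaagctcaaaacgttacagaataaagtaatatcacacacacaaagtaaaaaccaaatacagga

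The promoters of the recombinase genes had no strict peak. Rag1 (chr2:101638282-101649501, - strand) and Rag2 (chr2:101624718-101632529, + strand) each had 0 in replicate 1 and 0 in replicate 2. In the larger list, replicate 1 had a peak of signal 0.470 beside the Rag1 start and one of 0.487 over the Rag2 start, and replicate 2 had neither. The peak at Rag1 is also within 1000 bases of a start of B230118H07Rik, a gene that runs on the - strand across both Rag1 and Rag2. Dntt (chr19:41029275-41059525, + strand) had no promoter peak in either list of either library.

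Of the surrogate light chain genes, Vpreb1 (chr16:16868403-16870843, - strand) had a promoter peak of signal 4.25 in replicate 1 and 2.67 in replicate 2, a mean of 3.46 ± 1.12 (SD, n = 2). That peak (chr16:16870741-16870900 in replicate 1) covers the start of 2 non-coding transcripts of Vpreb1, 23 bases from its centre. It also covers a start of Top3b, 3 bases from its centre, so the peak is shared with that gene. Top3b, a DNA topoisomerase gene, runs the other way and has its outermost start 5 bases before the peak. The wider peak of replicate 2 (chr16:16870661-16870920) covers that outermost start too. The start of the one protein-coding transcript of Vpreb1 is at position 16869255, and the nearest strict peak was 1486 bases away in replicate 1 and 1406 in replicate 2, which is this same peak. Igll1 (chr16:16860671-16863985, - strand) had a strict promoter peak of signal 0.713 in replicate 1 and none in either list of replicate 2. Vpreb3 (chr10:75943057-75949657, + strand) had no strict promoter peak in either library, and the larger list of replicate 1 had one of 1.07 at its downstream start.

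Over the 6 genes, 2 had a strict promoter peak in replicate 1, 1 in replicate 2 and 1 in both. Over all protein-coding genes the shares were 56.7% in replicate 1, 51.4% in replicate 2 and 51.1% in both. With starts of protein-coding transcripts alone, a choice made after the data were seen, 0 of the 6 had a peak in both libraries, beside 50% of all genes, or 10966 of 21938. In the larger list, 5 of the 6 had a promoter peak in replicate 1 and 1 in replicate 2 and in both, beside 61.5%, 57.1% and 56.1% of all genes. The gap between the libraries was thus 4 genes of 6 in the larger list, and the stated animal number and the number of called peaks differ between the libraries in the same way. Their part in it was not tested.

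The authors also deposited per-base false discovery rates where they were under 0.05. Whether the peak lists were made from these rates is not stated in the sources used here. The lowest value within 1000 bases of a start is given here. Vpreb1 reached 6.18e-62 in replicate 1 and 6.37e-19 in replicate 2, and Igll1 reached 4.60e-07 in replicate 1. The lowest value in replicate 1 was 0.00243 at the Rag1 promoter, 0.00425 at Vpreb3 and 0.0145 at Rag2, and no base was listed at Dntt. In replicate 2 no base was listed in the promoters of the 5 genes other than Vpreb1. At a limit of 0.001, 2 of the 6 genes passed in replicate 1 and 1 in replicate 2, beside 57.3% and 52% of all promoters. In each library these were the genes with a strict promoter peak, so the counts are not a separate check.

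**Figure D1:**
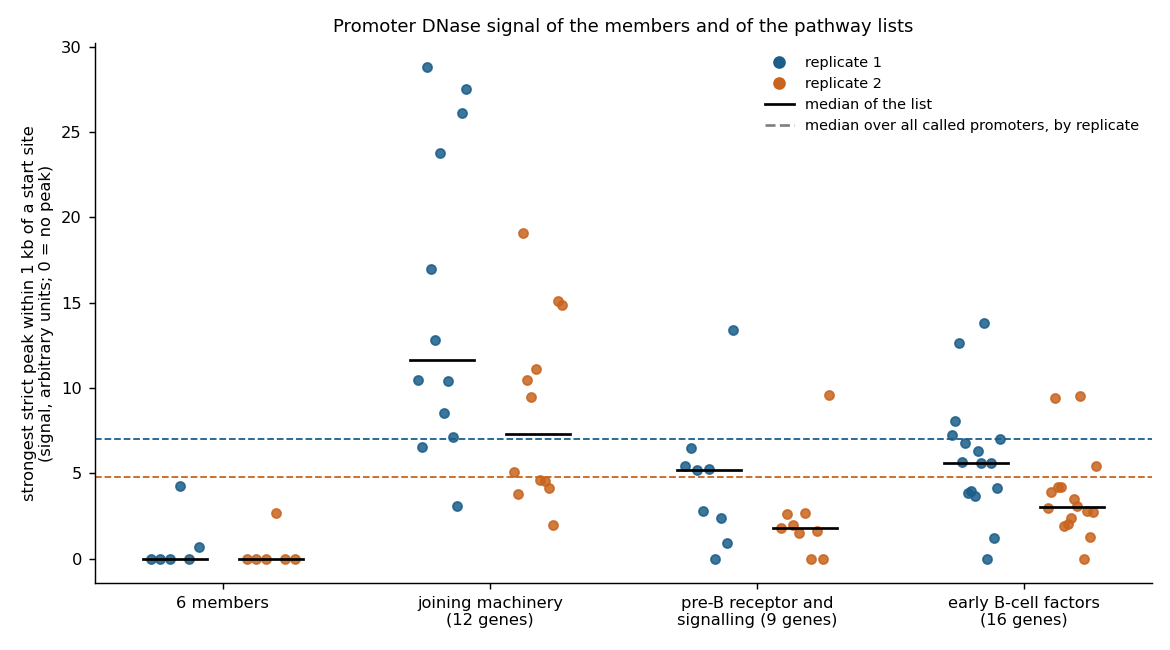
Each point is the strongest strict-peak signal (arbitrary units) within 1000 bases of a start of 1 gene, with 0 for no peak, in replicate 1 (blue) and replicate 2 (orange). Black bars are list medians and dashed lines the median over called promoters, 7.03 and 4.79. Only Vpreb1, at 4.25 and 2.67, stands above 0 in both libraries among the 6 members.

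The promoter peak counted for Vpreb1, which is shared with Top3b and may belong to that gene, was weaker than most called promoters. Its signal was higher than 34.2% of called promoters in replicate 1 and 27.4% in replicate 2, and the Igll1 peak was higher than 3.93%. Among the genes of the pathway lists, the 5 with promoter signals nearest to those of Vpreb1 in the 2 libraries, by distance between log2(signal + 1) values, were Myb, Irf4, Lyn, Spi1 and Sox4. Myb, a factor of blood progenitors, was nearest at 4.15 and 2.76, a distance of 0.0432.

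The Igll1 promoter peak of replicate 1 is shown because it is the one strict promoter peak in these loci at the start of a member's protein-coding transcript. No base of it lies in a footprint of both libraries, so it has no capitals.
Vpreb1/Igll1 site 2 (chr16:16863986-16864180, upstream of the Igll1 start, + strand): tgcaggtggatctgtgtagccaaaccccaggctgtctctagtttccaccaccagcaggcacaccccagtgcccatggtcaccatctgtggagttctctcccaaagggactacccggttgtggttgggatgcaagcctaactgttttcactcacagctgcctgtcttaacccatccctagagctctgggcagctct
It holds the E-box letters CAGGTG and CAGCTG and the RUNX letters TGTGGT, searched on both strands in the 200 bases around the peak centre. These were also found in 18.2%, 16.5% and 15.4% of all strict peaks of replicate 1. The same stretch holds the planned CTCF letters CNAGNNGGC, found in 25.2% of those peaks, and the short ETS letters GGAA, found in 88.7%.

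The part of Vpreb1 that codes for protein has a near copy in Vpreb2, on the same chromosome. The span chr16:16868061-16869473 aligned to chr16:17980202-17981613 over 1414 positions at 96.8% identity, and it includes the start of the protein-coding transcript. Reads there may be shared or discarded by the authors' alignment, so the absence of a peak at that start is uncertain. Vpreb2 itself had no promoter peak in either list, and the one site in its window had a signal of 0.797 in replicate 1. In replicate 2 that site was in the larger list alone, at 0.569.

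The other genes of the pathway are given by list, as counts beside the 51.1% of all genes with a strict promoter peak in both libraries. The joining machinery, which seals the cut ends, had a strict promoter peak in both libraries at 12 of 12 genes. Xrcc6, the Ku70 subunit that binds broken ends, was at 28.8 and 19.1 and Hmgb2, a protein that bends DNA for the recombinase, at 27.5 and 14.8. Of the pre-B receptor and its signalling genes, 7 of the 9 measured had one in both libraries, with Ccnd3, a cyclin, at 13.4 and 9.58 and Cd79b, a receptor signalling chain, at 6.50 and 2.61. Btk, a kinase, had none, and Il7r, the interleukin 7 receptor chain, had 0.940 in replicate 1 alone. Of the factors known to act on the members in early B cells, 15 of 16 had one in both, with Ets1 at 13.8 and 9.52 and Tcf3, which encodes the E2A proteins, at 12.7 and 9.39. Ebf1 was at 7.25 and 2.99 and Pax5 at 8.09 and 3.94, and Erg had no strict peak in either library. List medians were 11.7 and 7.29 for the joining machinery, 5.20 and 1.83 for the receptor list and 5.64 and 3.05 for the factors, against 0 and 0 for the 6 members and 1.29 and 0.838 over all genes.

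Distal sites made up 22 of the 42 sites found in either list over the 4 loci, with 5 promoter sites of members and 15 promoter sites of neighbours. In the strict lists, 14 distal sites were called in replicate 1 and 6 in replicate 2, and all 6 of the latter were among the former. Over the genome, 34.7% of distal strict sites and 66.9% of promoter sites were called in both libraries. At least 1 distal site called in both lay in the window of 5 of the 6 genes, all but Vpreb3, beside 41.9% of all protein-coding genes. Dntt had 3, and 96.0% of genes had as many or fewer, Rag1 had 2, and Rag2, Vpreb1 and Igll1 had 1 each. The Dntt window was 90.3 kb long, beside a median of 77.4 kb over all genes, and the counts were not adjusted for length. The windows of Rag1 and Rag2 share a site, as do those of Vpreb1 and Igll1, so these are not separate counts.

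Upstream of Rag1, site 9 had signals of 1.35 and 1.14 in replicates 1 and 2, and site 10 had 2.03 and 1.15. Both libraries called both peaks, the first 1.19 times and the second 1.77 times as high in replicate 1. Around Rag2, site 4 in an intron of B230118H07Rik, 8646 bases upstream of the Rag2 start, had 0.697 in replicate 1 alone. Site 7, in the Rag2 body 4304 bases past its start and at another start of B230118H07Rik, had 1.51 in replicate 1, and the larger list of replicate 2 held an adjoining peak of 0.496 that did not overlap it. No site upstream of the Rag2 start was called in either list of replicate 2. Peaks of 0.369, 0.462 and 0.344 in the larger list of replicate 1 lay 27351, 23927 and 16023 bases upstream of Rag2. Enhancers known to act on Rag2 in B cells lie upstream of it in mouse, and their coordinates were not in the sources used here, so none of these sites is matched to one. At the edge of the window, the promoter of Traf6, a signalling ubiquitin ligase, was at 4.72 and 3.34. A second peak at Traf6, 0.724, was the one strict site of the 4 loci called in replicate 2 alone.

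**Figure D2:**
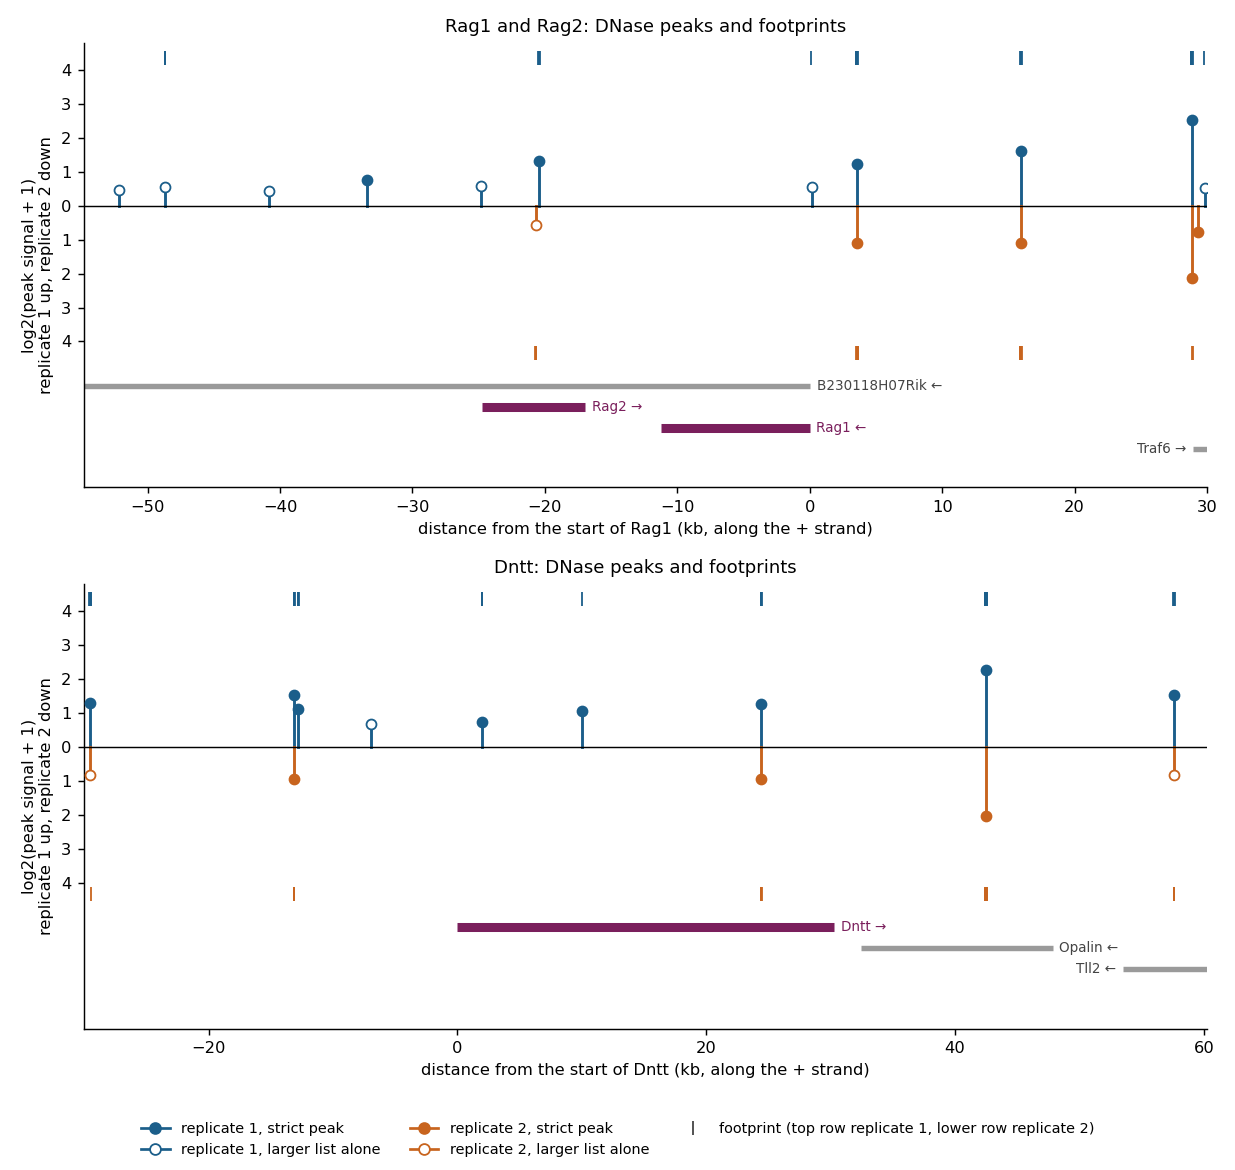
Peaks (stems, log2(signal + 1), replicate 1 up and replicate 2 down), footprints (ticks) and genes (bars, arrows for strand) against distance in kb from the Rag1 or Dntt start. Filled points are strict peaks and open points are in the larger list alone. The starts of Rag1, Rag2 and Dntt have no filled point, and the tallest distal pair is Dntt site 8, at signals of 3.80 and 3.14.

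The Dntt locus held the most distal sites, 8 in the strict list of replicate 1 and 3 of them in replicate 2. Site 2 upstream was at 1.89 and 0.935, a ratio of 2.02, the highest among the shared sites of the 4 loci. Site 7 in the Dntt intron was at 1.38 and 0.943. Site 8 was at 3.80 and 3.14 and lies in Opalin, a gene of myelinating cells whose own promoter had no strict peak in either library. The other 5 were called in replicate 1 alone. Site 1 at the upstream edge was at 1.46, site 3 at 1.17 and site 9, in Tll2, at 1.91. Sites 5 and 6, in Dntt introns, were at 0.646 and 1.08. The larger list of replicate 2 held site 1 at 0.773 and site 9 at 0.765 and not the remaining 3.

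The Vpreb1 and Igll1 locus had 1 distal strict site, site 1, at 1.29 and 1.07, a ratio of 1.20. The promoter of Ppm1f, a phosphatase gene in the window of Vpreb1, was at 11.3 and 8.09, over 2 times the Vpreb1 peak in each library.

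At Vpreb3, 2 distal sites just past the end of the gene were called in the strict list of replicate 1 and none in that of replicate 2. Site 11 (chr10:75949741-75950000), 1570 bases past the downstream start, had 2.51 in replicate 1 and was in neither list of replicate 2. Site 12 (chr10:75950821-75951077) had 1.97 in replicate 1 and 1.02 in the larger list of replicate 2. Of the 5 protein-coding neighbours in the window, 4 had a strict promoter peak in both libraries and Gm5134 had none. Smarcb1, a chromatin remodelling subunit, was at 11.9 and 6.86, Gm867 at 3.80 and 2.46, and a peak shared by Chchd10 and Mmp11 at 2.84 and 1.91.

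The 8 distal sites outside the strict lists were all in the larger list of replicate 1 and in no list of replicate 2. Their signals ran from 0.311, upstream of Igll1, to 1.18, in the body of Gm867 beside Vpreb3. They include 3 upstream of Rag2, 1 upstream of Dntt, 1 past Vpreb3 at 0.873 and 1 in an exon of Gm5134 at 0.462.

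**Figure D3:**
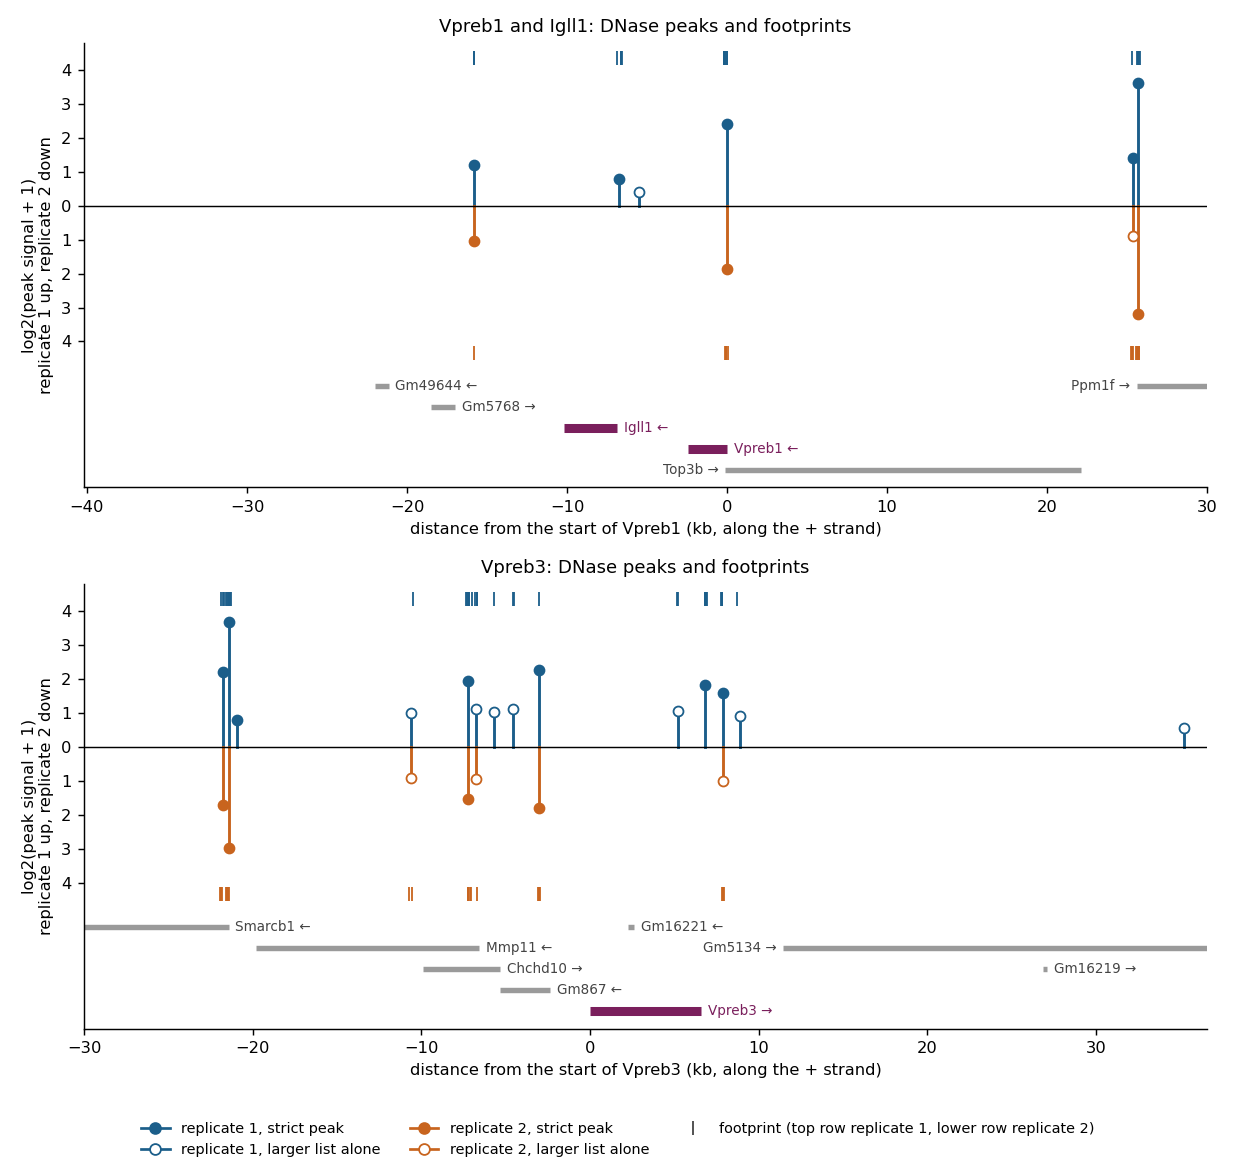
The same plot for the Vpreb1 and Igll1 locus, against distance in kb from the upstream Vpreb1 start, and for Vpreb3, against distance from its upstream start. The tallest stems belong to neighbours, Ppm1f at 11.3 and 8.09 and Smarcb1 at 11.9 and 6.86, and the peak at 0 of the upper panel is shared by Vpreb1 and Top3b.

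Across the 4 loci, 13 strict sites were called in both libraries, and the signal was higher in replicate 1 at all 13. The ratio ran from 1.19 to 2.02 with a median of 1.48, near the 1.49 over the genome. There, 5% of shared sites were under 0.863, 25% under 1.20 and 5% over 2.46, so most were higher in replicate 1. Relative to the pooled genome the shared sites of the 4 loci therefore showed no shift. Their median log2 ratio was -0.0078 after that of all sites was subtracted. Of the 13, 6 are promoters of neighbours. Over the genome the median ratio was 1.57 at promoter sites and 1.30 at distal sites, and the classes were not compared apart here. The 12 sites called in replicate 1 alone had signals from 0.646 to 2.51, while the 13 shared sites had signals in replicate 1 from 1.29 to 11.9.

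**Figure D4:**
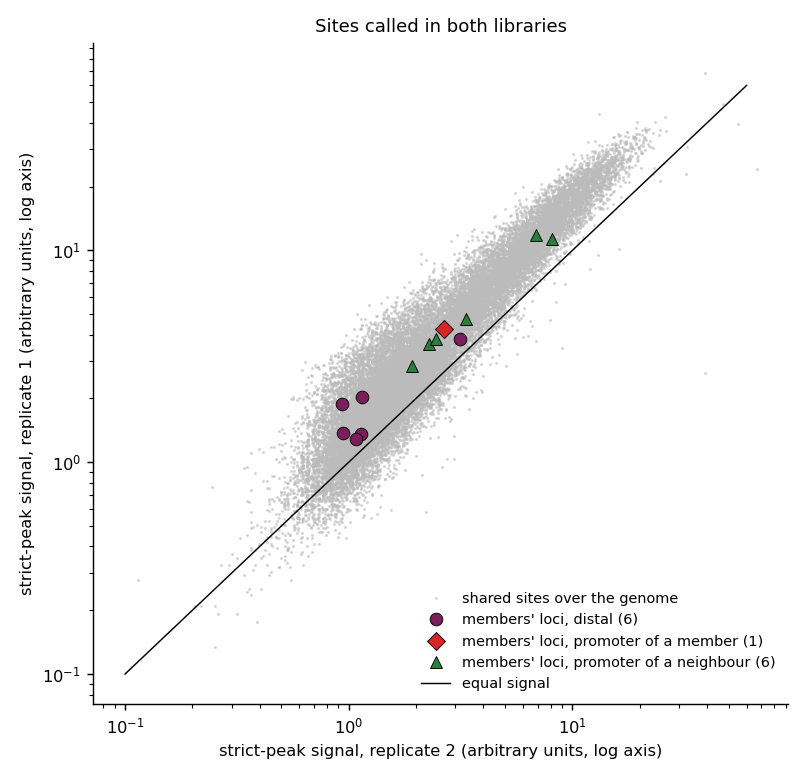
Strict-peak signal in replicate 2 (x) and replicate 1 (y), arbitrary units on log axes, for 25244 shared sites of the genome (grey) and the 13 of the members' loci (coloured by class). All 13 lie above the line of equal signal, inside the grey cloud, and 5 of the 6 distal ones lie at its lower end with signals of 0.935 to 2.03.

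Footprints numbered 103 in replicate 1 and 64 in replicate 2 over the 4 loci, of which 73 and 43 overlapped a strict peak. Of all 103 and 64, 35.9% and 67.2% overlapped a footprint of the other library, beside 42.0% and 66.6% over the genome. Of the long footprints, of at least 20 bases, 18 of 25 in replicate 1 and 17 of 17 in replicate 2 overlapped one of the other library, beside 87.2% and 98.3% of such footprints over the genome. By gene, Vpreb3 had the most, 35 and 21, and Igll1 the fewest in replicate 2, 13 and 5. The median over all protein-coding genes was 15 and 10. The Vpreb3 count comes from a window holding 4 neighbour genes with open promoters, and 23 of its 35 footprints in replicate 1 lay in strict peaks.

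The CTCF consensus was then set against the footprints. With up to 1 mismatch to its 12-letter core on either strand, within the 200 bases around the peak centre, a match was found at 5 of the 6 distal sites called in both libraries, and at each of the 5 it lay wholly inside a footprint of replicate 1 and a footprint of replicate 2. The sixth, Dntt site 2, had 2 mismatches. Some other long footprints did not cover a match, such as one of 25 bases at the edge of Dntt site 8 in replicate 1. Given the 49.2% over the genome, a match is common at sites of this kind. How often such matches lie inside footprints over the genome was not computed, so that count has no baseline. Of the 8 distal sites called in replicate 1 alone, 2 hold one, Dntt site 1 and Dntt site 9, beside 22.4% over the genome. The consensus is a description of letters, and binding of CTCF was not measured.

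At Rag1/Rag2 site 9 the footprints were 32 and 30 bases long and at site 10 they were 25 and 24. At Dntt site 7 they were 32 and 27 bases long and ended on the same base. At Dntt site 8 the footprint over the first match was 29 bases long and identical in both libraries. A second shared footprint, 32 and 33 bases long, lay in a near repeat of the same letters, as the capitals in the printed sequence show. The repeat differs from the match with 0 mismatches at Vpreb1/Igll1 site 1 in the first letter alone, so it is a match too. At Vpreb1/Igll1 site 1 they were 29 and 30 bases long. The shared bases of these footprints follow.
Rag1/Rag2 site 9: taaacaactagcgccaccatgtggccaaaa
Rag1/Rag2 site 10: acgaccagtaggtggcaggatt
Dntt site 7: gggagtggcgccctctgggggcagcag
Dntt site 8, first: gtcagacagcaggtggcgctgctgcatct
Dntt site 8, second: gtcagacagcagggggcgctgccacacgta
Vpreb1/Igll1 site 1: taggtgccagcagggggcgatataggata

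**Figure D5:**
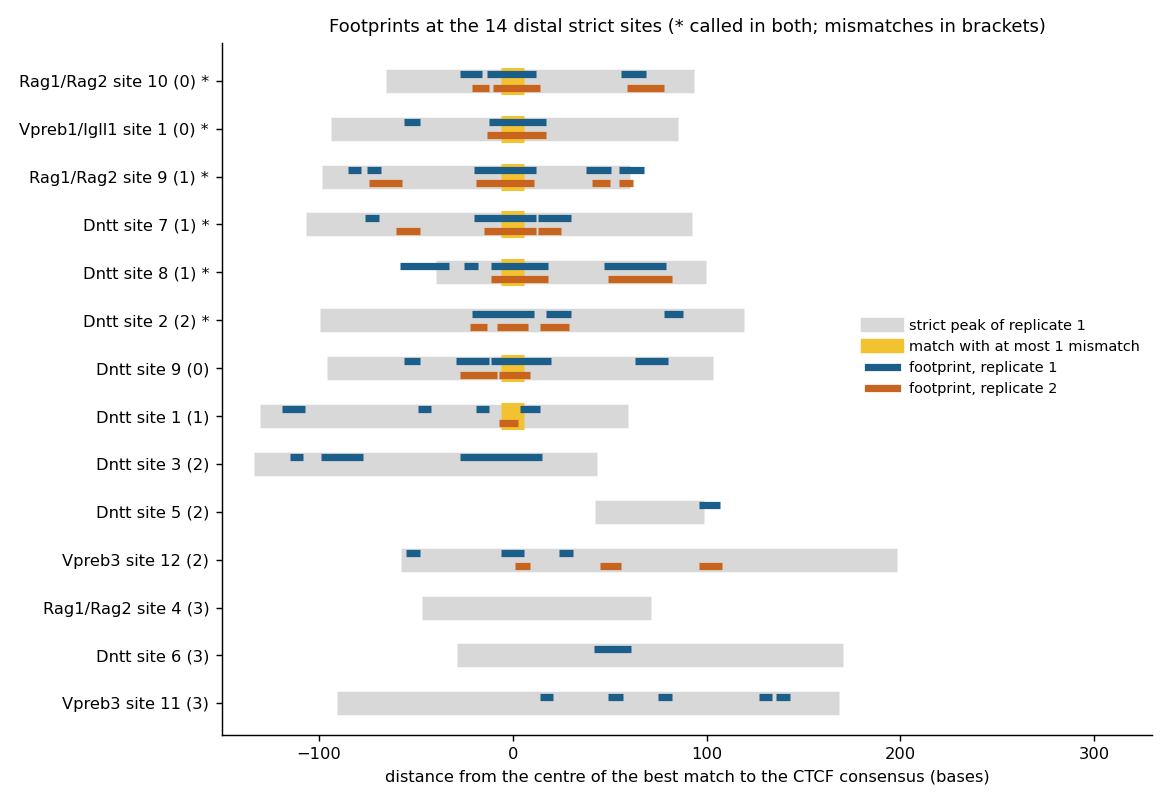
The 14 distal strict sites, centred on the base pairs that best match the CTCF core (x axis in bases). The replicate 1 peak is in grey and footprints are in blue (replicate 1) and orange (replicate 2). Yellow marks the first best match of a site where it has at most 1 mismatch. In the top 5 rows a footprint of each library spans the match, and the sites with 3 mismatches have no footprint of replicate 2.

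Letters of factors known in early B cells were searched beside the share of all strict peaks of replicate 1 that hold them. The search covered 16 sites, the 14 distal ones and the 2 strict promoter peaks of members, in the 200 bases around each centre and on both strands. The EBF letters CCCNNGGGA were in 0 of 16, beside 6.10%. The PU.1 letters GAGGAAGT were in 0, beside 4.25%, and the Ikaros letters TGGGAA in 2, beside 15.3%. The RUNX letters TGTGGT were in 2, beside 15.4%. The general E-box letters CANNTG were in 14, beside 63.2%, and at 6 of these sites a match lay in a footprint. Of its forms, CAGGTG was in 3, beside 18.2%. The E-box letters CAGCTG were in 5, beside 16.5%, 1 of them inside a footprint, at Dntt site 7 in both libraries. The FOXO letters GTAAACA were in 2, beside 2.16%, and at Rag1/Rag2 site 10 they touched a footprint in both libraries. The short ETS letters GGAA were in all 16, beside 88.7%. The planned CTCF letters CNAGNNGGC were in 3, beside 25.2%. Among the distal sites called in both libraries, Dntt site 7 alone held them. With 16 sites these counts only describe the windows, and an absent match says nothing of the factor.

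The shared distal sites had a GC content of 44.4% to 55.0%, and the Vpreb1 promoter peak 65.6%, near the 67.3% of the Ppm1f promoter. The Igll1 promoter peak was at 55.8% and held 1 CpG, while the Vpreb1 peak held 15. No site of the 4 loci had another copy in the reference at 90% identity or more over at least 50 bases.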

How the data were processed

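DNase-seq peaks, per-base false discovery rates and footprints of 2 spleen libraries were used as the authors deposited them, on mm10 per the labels; the sources used here do not name the aligner, the callers or their settings. Peak signal is the deposited value of each peak, and its values are whole multiples of 0.00839 in replicate 1 and 0.00813 in replicate 2 within 0.05 of a step, so comparisons between libraries rest on a normalization that is not stated. False discovery rates are the authors' p-value-like measure, deposited per base where under 0.05. The score deposited with each footprint is a constant, so footprints were used as positions. The strict list of a library is the peak list with fewer bases. Peaks are deposited per library. The mice carry a CAST genome beside the reference strain's, and its effect on alignment was not tested.

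Members and lists were chosen with earlier results of these data known. All 6 members are named, with every annotated neighbour whose body or promoter overlaps a peak in their windows; for each pathway list, the 2 genes with the highest mean are named, as is the alphabetically first one that lacks a strict peak. Ebf1, Pax5 and Il7r, and the markers named, were chosen after their values were seen. Ighm is not listed as protein-coding in the annotation and was not measured. Sites of the libraries were joined where they overlapped by at least 1 base. With 1 group there is no comparison between conditions and no test; the 2 libraries share a donor entry, and their spread may be technical. Promoter windows, gene windows, peak lists, overlaps and each replicate left out were alternatives; starts of protein-coding transcripts alone and the CTCF consensus were added after seeing the data. Coordinates are 1-based. Overlap and motif searches were tested on simulated data. Tools were Python 3.11.15, pandas 2.3.3, numpy 2.4.6, bedtools 2.31.1, samtools 1.23.1, BLAST 2.17.0 and matplotlib 3.10.9.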

Additional observations from a re-analysis of the deposited data

How the results depend on the processing

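The 1 member with a promoter peak in both libraries stayed at 1 with promoter windows of 500 or 2000 bases, in the larger list, with equal numbers of peaks and with the strongest 50% of peaks. It was 0 with starts of protein-coding transcripts alone, because the Vpreb1 peak lies at the start of non-coding transcripts. Counted in 1 library, it was 1 without replicate 1 and 2 without replicate 2. With windows of 2000 bases, Vpreb3 at 2.51 and Dntt at 0.646 also had a strict promoter signal, in replicate 1 alone. The 6 distal sites called in both libraries became 3 with gene windows widened by 10 kb and 12 with 100 kb, by construction. They were 6 without replicate 1 and 14 without replicate 2. Footprints numbered 54 and 28 in the 10 kb windows in place of 103 and 64. The median log2 ratio of 0.57 at shared sites was -0.0078 relative to that of all sites. Of the 6 distal sites, 2 matched the CTCF core with 0 mismatches, 5 with at most 1 and 6 with at most 2, beside 20.4%, 49.2% and 69.8% of such peaks over the genome. The Igll1 promoter peak of replicate 1 was lost when both libraries were cut to 28837 peaks, and also with the strongest 50% of peaks. No paired analysis was possible because there is 1 group. Read depth is unknown, so a peak absent from replicate 2 was not detected and cannot be called closed.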

Other observations

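Beyond the windows, between 30 and 100 kb from the members, 6 further distal strict sites were called in both libraries. On the Dntt side, a site inside Blnk, an adaptor of the pre-B receptor, 66135 bases upstream of the Dntt start, had signals of 4.55 and 3.30 in replicates 1 and 2, higher in each library than every distal site of the Dntt window. Beyond Rag1 and Traf6, a pair of sites in Prr5l had signals of 0.806 and 0.887 at 66346 bases and 2.24 and 0.895 at 83419 bases upstream of the Rag1 start. The first of the pair was higher in replicate 2, unlike all 13 shared sites inside the windows. Over the genome, at least 5% of shared sites were higher in replicate 2. The target genes of these sites were not tested.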
